A study of Sus scrofa with 12 samples.

Results

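The genes described here are RCAN1, NR4A3 and SLC25A25, which are known to rise in muscle with contraction or with calcium signalling through calcineurin. They are 3 of the 20741 features in the whole-genome count tables of muscle RNA-seq from 12 pigs, and they were chosen by the range of their measured levels between these animals, which was wide. Their Ensembl identifiers are ENSSSCG00000012050 for RCAN1, ENSSSCG00000005385 for NR4A3 and ENSSSCG00000005636 for SLC25A25. All 3 were among the 10627 features that passed the filter on low counts. The study compared muscle of 6 pigs labelled high drip with that of 6 labelled low drip, drip being the fluid that seeps out of the meat after slaughter. Each drip group held 3 males (replicates 4 to 6) and 3 females (replicates 1 to 3), so the replicate blocks are the sexes. The animals were 167 to 189 days old, at 176 ± 6.92 days in the high drip group and 178 ± 6.74 days in the low drip group (mean ± SD, n = 6 each). The labels name no treatment, no breed and no particular muscle.

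RCAN1 encodes a regulator that binds and inhibits calcineurin, the phosphatase that is switched on by calcium. Calcineurin sends NFAT transcription factors to the nucleus, and RCAN1 is itself an NFAT target, which makes it a feedback inhibitor and a common readout of the pathway. NR4A3 is an orphan nuclear receptor transcribed as an early response gene, and in human and rodent muscle it is among the transcripts that increase most after exercise. SLC25A25 is a carrier of ATP-magnesium and phosphate in the inner mitochondrial membrane whose activity is controlled by calcium.

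The tables held 8009627 to 12622043 counts per library. Each table was assigned to the animal whose number it carries, and 3 tables, of high drip replicate 2 and of low drip replicates 1 and 2, are recorded under another animal. Region tables deposited for the same animals shared 737 to 745 of 770 counts exactly with the whole-genome table of the same number, and at most 167 with any other. For the 3 animals in conflict they shared 123 to 136 counts with the table recorded for them. All 3 are female, so their sex is the same either way, but for 2 of the 3 tables the drip group is not, and results are given with and without them. Albumin transcripts (ALB), which come from liver, were at 25.6 to 317 CPM (counts scaled to a common library total) in 6 libraries, namely high drip replicates 1 to 4 and low drip replicates 5 and 6, and at 0.327 to 2.49 CPM in the other 6. Skeletal muscle markers summed to between 114960 and 153019 CPM in every library, over the 5 of 10 markers that had an identifier. Because the tissue was bulk muscle, fewer cells of a type and less RNA per cell cannot be told apart. The labels give 1 library per animal.

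RCAN1 differed between individual animals far more than between the groups. It was at 1214, 431 and 337 CPM in high drip males (replicates 4, 5 and 6) and at 73.3, 1389 and 261 CPM in low drip males (replicates 4, 5 and 6). Females had 299, 217 and 866 CPM at high drip (replicates 1, 2 and 3) and 454, 454 and 262 CPM at low drip (replicates 1, 2 and 3). The highest and the lowest animal of the 12, low drip replicates 5 and 4, were therefore in the same group of males. High drip replicates 4 and 3 were next below the highest, and the other 8 animals lay between 217 and 454 CPM. The counts behind these values ran between 718 and 14746.

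NR4A3 was high in 3 males and low in every female. It stood at 163, 31.2 and 28.1 CPM in high drip males and at 9.69, 352 and 126 CPM in low drip males, in the order of replicates 4, 5 and 6. In females it was at 7.39, 9.81 and 30.5 CPM at high drip and at 17.6, 37.7 and 19.2 CPM at low drip, in the order of replicates 1, 2 and 3. Only high drip replicate 4 and low drip replicates 5 and 6, all male, exceeded 37.7 CPM. They were also the males of the libraries with the higher albumin levels. The other males, at 31.2, 28.1 and 9.69 CPM, lay within the range of the females. The low drip male with the least RCAN1, replicate 4, also had less NR4A3 than any animal but high drip replicate 1. The lowest library still held 69 NR4A3 counts and the highest 3736.

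SLC25A25 varied less and was arranged differently. Its levels were 272, 215 and 230 CPM in high drip males (replicates 4, 5 and 6), against 155, 170 and 145 CPM in low drip males (replicates 4, 5 and 6). These sets of 3 did not overlap, as was the case for 9.64% of the features tested. In females the levels were 111, 58.5 and 201 CPM at high drip (replicates 1, 2 and 3), against 162, 226 and 416 CPM at low drip (replicates 1, 2 and 3). The female groups overlapped, because high drip replicate 3 was above low drip replicate 1, and they held both the lowest and the highest animal of the 12. Counts ran between 751 and 3544.

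**Figure D1:**
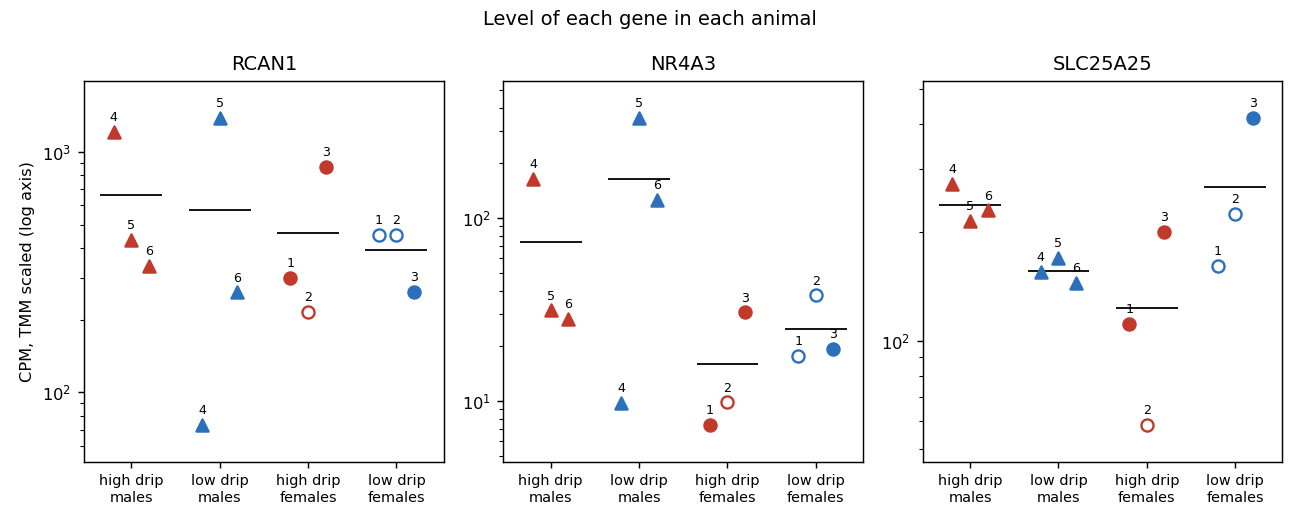
Level of RCAN1, NR4A3 and SLC25A25 in each of 12 pigs, in CPM on a log axis, by drip group and sex. Each point is 1 animal with its replicate number, horizontal lines are group means of 3 animals, triangles are males, circles are females, and open circles are the 3 tables recorded under another animal. The highest RCAN1 level (1389 CPM) and the lowest (73.3 CPM) are both in low drip males, and the SLC25A25 levels of high and low drip males do not overlap, as for 9.64% of the features tested.

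The ratio of the highest to the lowest animal was 19.0 for RCAN1, 47.6 for NR4A3 and 7.11 for SLC25A25. The SD of log2 CPM over the 12 animals was 1.16 for RCAN1, 1.72 for NR4A3 and 0.70 for SLC25A25, against a median of 0.299 over all features tested. Ranked by this SD among the 10627 features, NR4A3 was in place 30, RCAN1 in place 100 and SLC25A25 in place 591. Since the SD is larger at low counts, the ranks were also taken among features with at least the same median level: 1 of 243 had a larger SD than RCAN1, 1 of 2942 a larger SD than NR4A3 and 14 of 556 a larger SD than SLC25A25. These spreads are what the genes were chosen for and are a description only.

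None of the 3 genes differed between high and low drip beyond the spread between animals. RCAN1 averaged 561 ± 393 CPM at high drip and 482 ± 467 CPM at low drip, and its log2 fold, high minus low with sex in the fit, was 0.22 ± 0.55 (SE). NR4A3 averaged 45.02 ± 58.8 CPM at high drip and 93.7 ± 134 CPM at low drip, with a log2 fold of -0.91 ± 0.65 and an unadjusted p of 0.185 in edgeR. SLC25A25 averaged 181 ± 80.2 CPM at high drip and 212 ± 104 CPM at low drip (SD, n = 6 each throughout), with a log2 fold of -0.25 ± 0.36. The adjusted p in edgeR's quasi-likelihood test was 0.999 for each gene.

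No feature at all passed the adjusted threshold of 0.05 in that fit (0%), and 380 of 10627 (3.58%) had an unadjusted p under 0.05, none of them RCAN1, NR4A3 or SLC25A25. DESeq2 and limma voom called 0 features as well. Without the 3 conflicting tables the log2 folds were 0.47 for RCAN1, -0.84 for NR4A3 and -0.06 for SLC25A25, and with the 12 tables as recorded they were 0.50, -0.26 and 0.18, so the sign of SLC25A25 depended on the assignment. A single library set much of the RCAN1 and NR4A3 values. Without low drip replicate 5 the log2 fold of RCAN1 was 0.98 and that of NR4A3 -0.29, while RCAN1 stood at -0.14 without high drip replicate 3, at -0.12 without high drip replicate 4 and at -0.013 without low drip replicate 4. The SLC25A25 fold was 0.013 without high drip replicate 2 and 0.040 without low drip replicate 3.

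By sex, NR4A3 showed the largest difference of the 3. It averaged 118 ± 130 CPM in males and 20.4 ± 11.8 CPM in females (SD, n = 6 each). Its log2 fold, male minus female with drip in the fit, was 2.47 ± 0.68, with an unadjusted p of 0.00251 and an adjusted p of 0.627 in edgeR, so it did not pass over all features. Males ran between 9.69 and 352 CPM and overlapped the females, who ran between 7.39 and 37.7 CPM. The fold was 2.37 ± 1.01 in the 9 animals without a conflict (edgeR adjusted p = 0.659) and 1.89 without low drip replicate 5.

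RCAN1 averaged 618 ± 546 CPM in males and 425 ± 238 CPM in females, a log2 fold of 0.54 ± 0.56 (edgeR adjusted p = 0.877). Without low drip replicate 5 that fold was -0.21. SLC25A25 had nearly the same mean in both sexes, 198 ± 49.5 CPM in males and 196 ± 124 CPM in females, but its SD was larger in females. The log2 fold of SLC25A25 was 0.09 ± 0.36 (edgeR adjusted p = 0.976). In the fit by sex 0% of features passed the adjusted threshold in edgeR and 6.41% had an unadjusted p under 0.05, while DESeq2 called 2 features and limma voom 0, none of them one of these genes.

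For SLC25A25 the drip difference had opposite signs in the sexes. High drip males averaged 239 ± 29.7 CPM and low drip males 157 ± 12.3 CPM (SD, n = 3 each), a log2 fold of 0.61 ± 0.38 with an unadjusted p of 0.128 from edgeR. High drip females averaged 123 ± 71.9 CPM and low drip females 268 ± 132 CPM (SD, n = 3 each), a log2 fold of -1.12 ± 0.38 with an unadjusted p of 0.0111 from edgeR. Without low drip replicate 3 the fold in females was -0.65 ± 0.36, with an unadjusted p of 0.0944. The drip effect in males less that in females was 1.73 ± 0.53 on the log2 scale, with an unadjusted p of 0.00633 and an adjusted p of 0.9999 in edgeR, so it did not pass over all features.

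In the fit with the product of sex and drip 0% of features passed the adjusted threshold, as in the contrasts within males (0%) and within females (0%). Unadjusted p-values under 0.05 made up 3.49% of the features for the product, 3.68% within males and 3.36% within females. DESeq2 called 7 features for the product, 2 within males and 9 within females, none of them one of these genes, and limma voom called 0 in each. The SLC25A25 difference between the sexes was 2.01 in the 9 animals without a conflict, among which low drip replicate 3 was the only low drip female. With the tables as recorded it was 0.85 ± 0.68 (edgeR adjusted p = 0.936). With the conflicting tables as recorded the drip difference in females was -0.24 ± 0.48. Without those tables it was -1.41, where the low drip side was that animal alone, so it gives no spread for that group. The 3 high drip females all had liver transcripts and the 3 low drip females had none, so the female drip difference and the presence of liver RNA cannot be told apart among females. With the presence of liver transcripts as a further term, which then rests on the males, the difference between the sexes was 1.93 ± 0.75 (edgeR adjusted p = 0.865).

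In the same fit without the liver term, the drip differences of RCAN1 and NR4A3 had the same sign in both sexes. RCAN1 had log2 folds of 0.20 ± 0.81 in males and 0.24 ± 0.81 in females. NR4A3 had log2 folds of -1.13 ± 0.93 in males and -0.66 ± 0.97 in females. The drip effect in males less that in females was -0.04 ± 1.15 for RCAN1 and -0.47 ± 1.33 for NR4A3. The standard errors of both were above 1 on the log2 scale. Without low drip replicate 5 the RCAN1 fold in males was 1.99 ± 0.71 and the NR4A3 fold in males 0.14 ± 0.93.

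With the liver term the fitted signs differed between the sexes for these genes too. That term rests on the males, because among females the liver transcripts and drip cannot be told apart. The female folds with it therefore take off a liver effect fitted in males, and they are not directions measured in females. RCAN1 then had log2 folds of 1.46 ± 0.73 in males and -2.33 ± 0.94 in females, a difference of 3.79 ± 1.40 with an unadjusted p of 0.0186 and an adjusted p of 0.857 in edgeR. NR4A3 had log2 folds of 0.44 ± 0.68 in males and -4.13 ± 0.89 in females, a difference of 4.57 ± 1.305 with an unadjusted p of 0.00405 and an adjusted p of 0.546 in edgeR. The fitted directions thus depended on whether that term was in the fit, for RCAN1 in females and for NR4A3 in males. The differences between the sexes with it carry the same limit as the female folds.

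**Figure D2:**
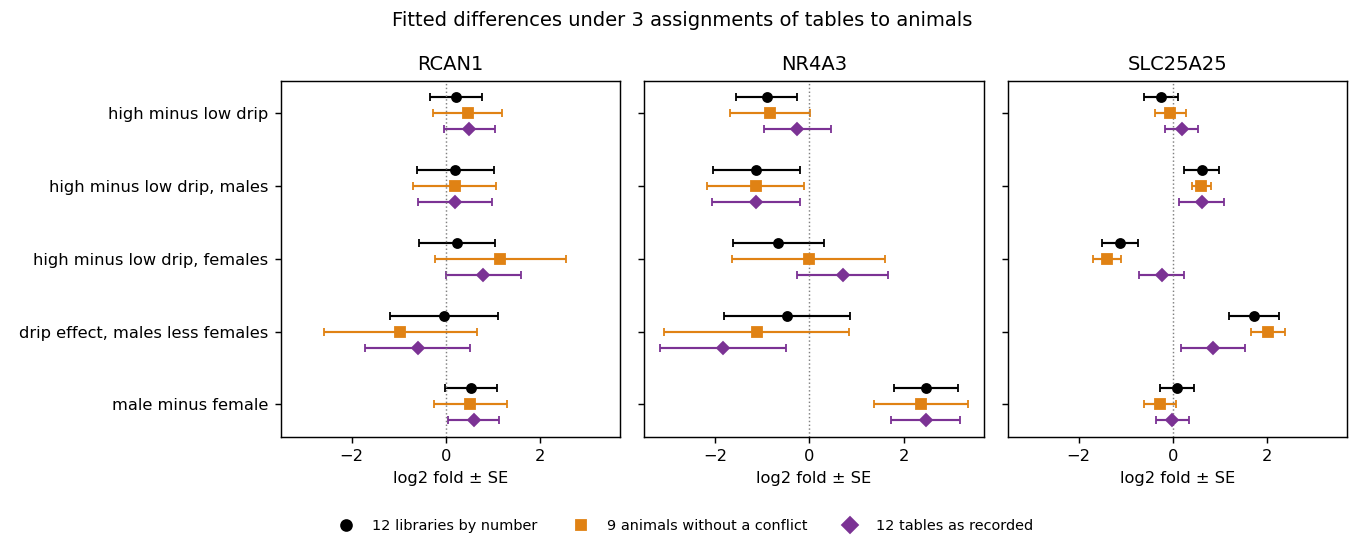
Fitted log2 folds of RCAN1, NR4A3 and SLC25A25 with their SE, for the drip difference in all animals, in males and in females, for the difference of the drip effect between the sexes, and for males against females. Black circles use the 12 libraries by number, orange squares the 9 animals without a conflict and purple diamonds the 12 tables as recorded. The SLC25A25 difference between the sexes is 1.73 by number, 2.01 in the 9 animals and 0.85 as recorded. Among the 9 animals, low drip replicate 3 is the only low drip female.

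RCAN1 and NR4A3 had a higher correlation with each other over the animals than either had with SLC25A25, a difference that was not tested. Over the 12 libraries Pearson's r of log2 CPM was 0.707 between RCAN1 and NR4A3 (two-sided permutation p = 0.0093) and Spearman's rho was 0.636 (permutation p = 0.0306). Adjusted over the 10626 features compared with RCAN1, the permutation p of r was 0.488, and 0% of features passed with either gene. NR4A3 held place 130 among the features most alike to RCAN1, and RCAN1 place 204 among those most alike to NR4A3. In the 9 animals without a conflict r was 0.710 (exact permutation p = 0.0296).

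The relation rested partly on the most extreme animals. Without the 2 animals farthest from the RCAN1 median, low drip replicates 4 and 5, r was 0.524 over 10 libraries, and without low drip replicate 5 alone it was 0.588 (permutation p = 0.0562). Without the 2 farthest from the NR4A3 median, high drip replicate 4 and low drip replicate 5, it was 0.377. When each sex and drip group was set to its own mean, the deviations of the 2 genes had an r of 0.930. That value is a description over groups of 3 animals, and low drip replicates 4 and 5 are among them. It was not taken without these animals. Within males r was 0.847 (n = 6, exact permutation p = 0.0361) and within females 0.692 (n = 6, exact permutation p = 0.131). Among high drip animals it was 0.863 (n = 6, exact permutation p = 0.0278) and among low drip animals 0.743 (n = 6, exact permutation p = 0.0889). In libraries with liver transcripts it was 0.681 (n = 6, exact permutation p = 0.128) and in those without 0.839 (n = 6, exact permutation p = 0.0389). Spearman's rho was lower in several of these groups. By exact permutation it was 0.829 in males (p = 0.0583), 0.486 in females (p = 0.356), 0.886 at high drip (p = 0.0333) and 0.486 at low drip (p = 0.356). It was 0.714 with liver transcripts (exact permutation p = 0.136) and 0.429 without them (exact permutation p = 0.419).

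The correlation of SLC25A25 with the other genes had a higher r among high drip than among low drip animals, a contrast that was not tested. Over all 12 libraries its r was 0.295 with RCAN1 (permutation p = 0.348, adjusted 0.848, rho 0.434 with p = 0.161) and 0.322 with NR4A3 (permutation p = 0.310, adjusted 0.683, rho 0.441 with p = 0.153). Among high drip animals r was 0.747 with RCAN1 (n = 6, exact permutation p = 0.0861) and 0.794 with NR4A3 (n = 6, exact permutation p = 0.075). Among low drip animals r was 0.0132 with RCAN1 (n = 6, exact permutation p = 0.975) and -0.271 with NR4A3 (n = 6, exact permutation p = 0.626). By rank the contrast with RCAN1 was smaller, with a rho of 0.771 at high drip (exact permutation p = 0.103) and 0.429 at low drip (exact permutation p = 0.419). The rho with NR4A3 was 0.771 at high drip (exact permutation p = 0.103) and 0.0857 at low drip (exact permutation p = 0.919). In libraries with liver transcripts r with RCAN1 was 0.808 (n = 6, exact permutation p = 0.0306) and in those without 0.230 (n = 6, exact permutation p = 0.556). With NR4A3 these values were 0.679 (n = 6, exact permutation p = 0.131) and 0.327 (n = 6, exact permutation p = 0.528). Low drip replicate 5, with the most RCAN1 and NR4A3, had 170 CPM of SLC25A25, while low drip replicate 3, with the most SLC25A25, had 262 CPM of RCAN1 and 19.2 CPM of NR4A3. Without the 2 animals farthest from the median on the x axis, r was 0.414 with RCAN1 and 0.354 with NR4A3 (10 libraries each). These 3 pairs were the only ones compared among the genes.

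**Figure D3:**
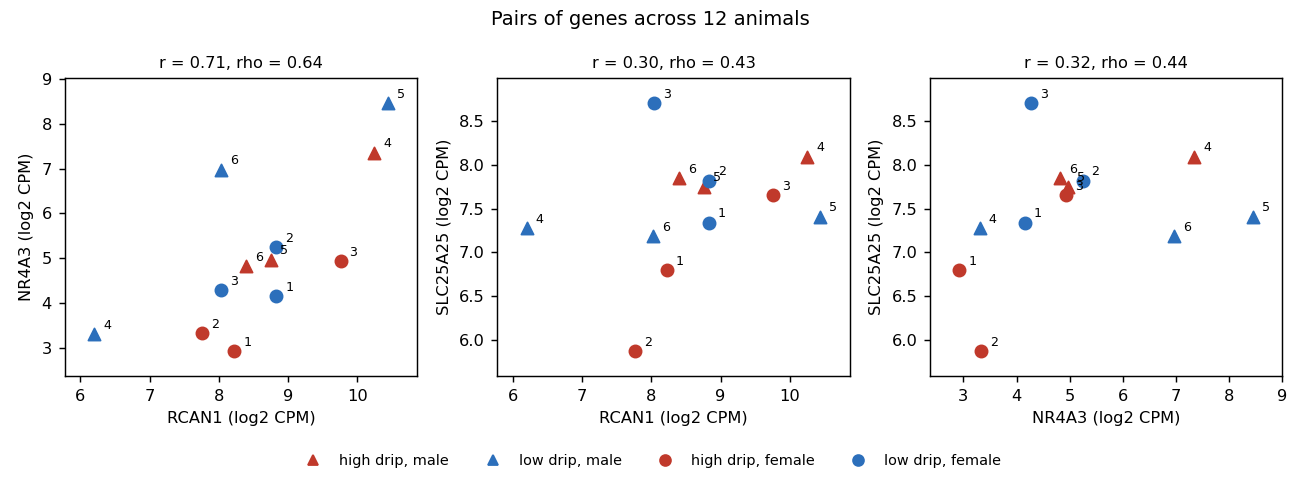
Level of each gene against another over 12 pigs, in log2 CPM on both axes, with Pearson's r and Spearman's rho above each panel. Triangles are males, circles are females, red is high drip, blue is low drip, and numbers are replicates. RCAN1 and NR4A3 have the highest r of the 3 pairs (0.707), with low drip replicates 4 and 5 at opposite ends.

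The features whose levels across the 12 animals were most like those of each gene were ranked by Pearson's r among the features with a symbol. With RCAN1 these were PPP2CA, the catalytic subunit of a serine/threonine phosphatase (r 0.880), ASB5, an ankyrin repeat protein of striated muscle (0.877), and DNAJB4, a heat shock co-chaperone (0.871). EIF4E, SLC19A2, PRSS23, GPD2, MYO1C, ITGB8 and UAP1 followed, down to 0.850. The lowest r with RCAN1 belonged to OGFOD2 (-0.909), COG8, SLC35C2, C19orf38 and CITED2 (-0.855). ASB5 shows the likeness in single animals: it stood at 1941 CPM in high drip replicate 4 and at 2672 CPM in low drip replicate 5, and at 316 CPM in low drip replicate 4, its lowest. Adjusted permutation p-values of these 15 features ran between 0.220 and 0.290.

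With NR4A3 the highest were TYW3 (r 0.888), DNAJB9, a co-chaperone of the endoplasmic reticulum (0.888), ARHGEF10 (0.884), and ROS1. EIF2AK3, the kinase that responds to unfolded protein in the endoplasmic reticulum, PRKAG2, a regulatory subunit of the energy sensor AMPK (0.865), BTG3, SLC19A2, the thiamine transporter (0.860), ATG3 and PICALM followed. PRMT6 (-0.928), DDX28, TMCO6, ZNF687 and HS6ST1 had the lowest r. SLC19A2 was in both lists, at 91.1 CPM in high drip replicate 4 and 65.5 CPM in low drip replicate 5, and at 7.96 CPM in low drip replicate 4. The adjusted permutation p-values were 0.162 to 0.173 for these 15 features and 0.106 for the smallest over all features.

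With SLC25A25 the highest were VILL (r 0.848), ASB18, PDGFC, EXOC6B, PNMT, TMCC2, RHCG, AMOTL1, TFRC, the transferrin receptor (0.755), and ZBTB2. The lowest were AKNA (-0.880), F2, which encodes prothrombin, CFB, OXNAD1 and PCK1, an enzyme of gluconeogenesis (-0.811). F2, CFB and PCK1 are transcribed in liver, whose markers also had negative correlations with SLC25A25. Adjusted permutation p-values were 0.956 to 0.9998 for these 15 features, and 0% of features passed. An unadjusted permutation p under 0.05 was found for 8.49% of features with RCAN1, 12.6% with NR4A3 and 3.77% with SLC25A25.

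Genes of the calcineurin and NFAT pathway had correlations of both signs with the 3 genes, and r was above 0 for 16 of 27 with RCAN1, 19 of 28 with NR4A3 and 20 of 28 with SLC25A25. Of 33 listed genes, 28 had an identifier and were tested, and no member passed the adjusted threshold in the drip, sex or product fits. The median r of the list was 0.17 with RCAN1 (27 other members), 0.19 with NR4A3 and 0.22 with SLC25A25, against medians between -0.01 and 0 over all features. Unadjusted permutation p-values were under 0.05 for 3 of 27 members with RCAN1, 7 of 28 with NR4A3 and 1 of 28 with SLC25A25. The shares over all features were 8.49% with RCAN1, 12.6% with NR4A3 and 3.77% with SLC25A25, so the counts with RCAN1 and SLC25A25 were near those shares.

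NFATC1, a transcription factor activated by calcineurin, ran between 12.8 and 50.7 CPM, and its r was 0.682 with RCAN1, 0.757 with NR4A3 and 0.543 with SLC25A25. Its lowest and highest libraries, low drip replicate 4 and high drip replicate 4, were also near the ends for RCAN1. NFATC2, of the same family, had a drip effect in males less that in females of 1.40 on the log2 scale (unadjusted p = 0.0146 in edgeR). GSK3B also had an unadjusted edgeR p under 0.05 for that product, with the opposite sign. Of the 28 tested, 1 was thus positive and 1 negative at that level, against 3.49% of all features. The smallest adjusted edgeR p of the list for the product was 0.9999. LMCD1, a LIM protein that activates calcineurin signalling in mouse heart, had an r of 0.656 with RCAN1. MEF2C, a muscle transcription factor, had an r of 0.628 with RCAN1 and 0.64 with NR4A3.

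The calcineurin subunits varied over a narrower range than RCAN1, but RCAN1 was chosen for its wide range, so the contrast is a description only. PPP3CA, the alpha catalytic subunit, ran between 29.2 and 47.2 CPM and PPP3CB, the beta catalytic subunit, between 413 and 594 CPM. NFATC3 ran between 50.1 and 83.5 CPM and NFATC4 between 2.52 and 6.12 CPM. RCAN2, a paralog of RCAN1, ran between 1.64 and 6.18 CPM with an r of 0.416, and RCAN3 between 0.587 and 2.64 CPM with an r of 0.447. PPP3CC and PPP3R1 had no identifier with that symbol.

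Most genes of contraction responsive transcription had a positive correlation with RCAN1 (19 of 23), with NR4A3 (19 of 22) and with SLC25A25 (18 of 23). Of 47 listed genes, 26 had an identifier and 23 were tested. Their median r was 0.51 with RCAN1, 0.37 with NR4A3 (22 other members) and 0.22 with SLC25A25. With RCAN1, 10 of 23 had an unadjusted permutation p under 0.05, 9 of them with a positive r, with NR4A3 7 of 22, 6 of them positive, and with SLC25A25 2 of 23, both positive. Over all features these shares were 8.49% with RCAN1, 12.6% with NR4A3 and 3.77% with SLC25A25, and the list was chosen with results of these animals known. No member passed when adjusted over all features.

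ATF3, a stress-induced transcription factor, had an r of 0.831 with RCAN1 and 0.787 with NR4A3. Its level ran between 67.5 CPM in low drip replicate 4 and 1126 CPM in high drip replicate 4. MAFF, a small Maf transcription factor, had an r of 0.775 with RCAN1 and 0.746 with NR4A3, over 9.18 to 136 CPM. CCN2, connective tissue growth factor, had 0.726 with RCAN1 and 0.777 with NR4A3, and VEGFA, the growth factor of blood vessels, 0.642 with RCAN1 and 0.823 with NR4A3. CITED2, a transcriptional co-regulator, was the member with a negative r and an unadjusted permutation p under 0.05, with an r of -0.855 with RCAN1 and -0.722 with NR4A3.

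NR4A2, the other measured member of the NR4A family, ran between 2.72 and 13.1 CPM. Its r was 0.576 with RCAN1, 0.391 with NR4A3 and 0.631 with SLC25A25. NR4A1 and PPARGC1A had no identifier with that symbol. FOS, an immediate early transcription factor, ranged from 30.8 CPM in high drip replicate 2 to 812 CPM in low drip replicate 3, the same animals that had the least and the most SLC25A25. Its r with SLC25A25 was 0.564 (permutation p = 0.0523).

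The direction of the drip difference in this list was mostly negative. Of the 23 tested, 19, NR4A3 among them, had a lower fitted level in high drip than in low drip animals. The median log2 fold was -0.36, against 0.00 over all features. FOS, KLF4, MYC, CCN1 and THBS1 had an unadjusted p under 0.05 in edgeR, all lower at high drip. That is 5 of 23 against 3.58% of all features, and the smallest adjusted p in the list was 0.999. Negative folds were found for 18 of 23 within females and 15 of 23 within males. At an unadjusted edgeR p under 0.05 there were 5 within females (EGR1, KLF4, MYC, CCN1 and CCN2), all lower at high drip, and 0 within males. The shares over all features were 3.36% and 3.68%. Among females drip cannot be told apart from the presence of liver transcripts. By sex the median of the list was -0.05, and NR4A3 and VEGFA had an unadjusted p under 0.05, both higher in males, which is 2 of 23 against 6.41% of all features.

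Other calcium regulated carriers varied over narrower ranges than SLC25A25, which was itself chosen for its range, so this too is a description only. Of 12 calcium regulated carriers and uniporter genes 10 were tested, none passed the threshold, and their median r was 0.06 with RCAN1, 0.04 with NR4A3 and 0.13 with SLC25A25. SLC25A23 and SLC25A24, paralogs of SLC25A25 that carry the same substrates, ran between 5.22 and 8.45 CPM and between 5.92 and 14.9 CPM. The aspartate and glutamate carriers SLC25A12 and SLC25A13 ran between 105 and 156 CPM and between 3.56 and 9.28 CPM. Of 19 genes of calcium release and uptake, 11 were tested and none passed, with a median r of 0.14 with RCAN1, -0.23 with NR4A3 and 0.24 with SLC25A25.

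PRKAG3, the muscle-specific regulatory subunit of AMPK, had an r of -0.303 with RCAN1, -0.669 with NR4A3 and 0.301 with SLC25A25. FKBP5, a co-chaperone induced by glucocorticoids, ran between 43.2 and 173 CPM with a drip log2 fold of -1.02 ± 0.23 (edgeR adjusted p = 0.999). Its r was -0.436 with RCAN1, -0.140 with NR4A3 and -0.125 with SLC25A25.

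**Figure D4:**
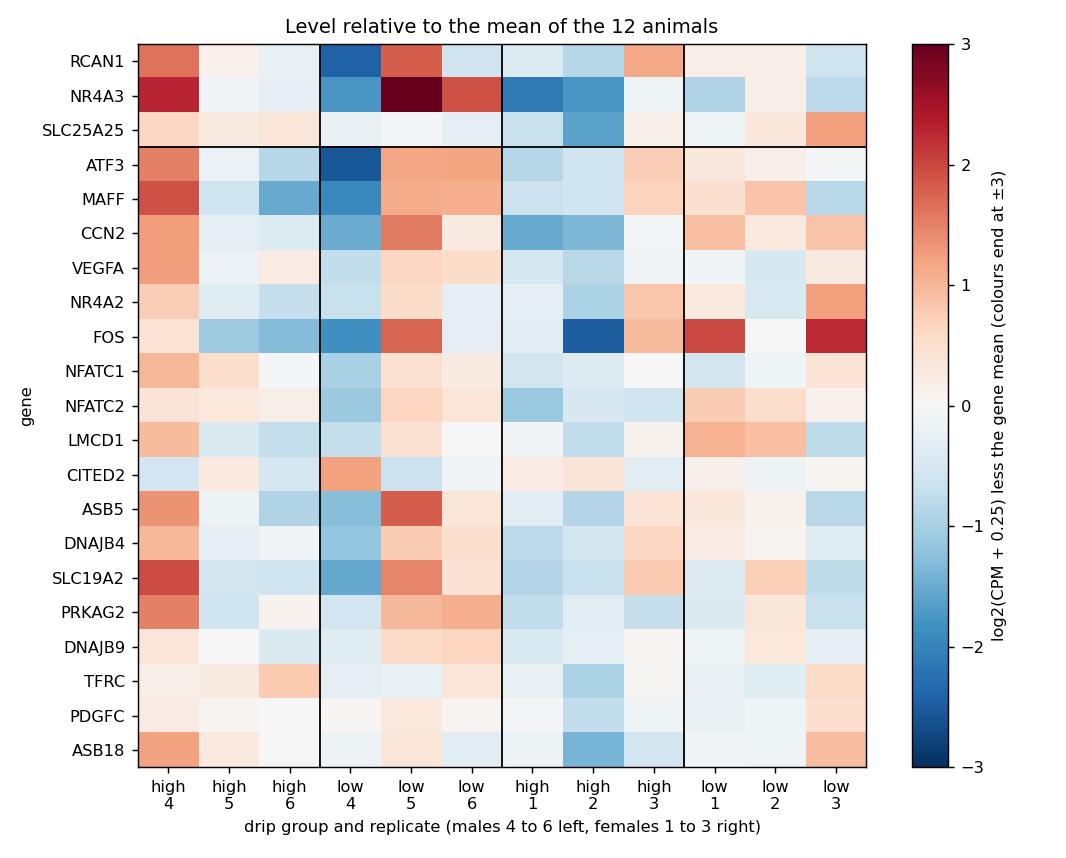
Level of RCAN1, NR4A3, SLC25A25 and 18 other genes named in the text in each of 12 pigs, as log2(CPM + 0.25) less the gene's mean over the animals, with colours ending at 3 in either direction. Columns are animals by drip group and replicate, males on the left and females on the right. RCAN1, NR4A3, ATF3, MAFF, ASB5 and SLC19A2 are above their means in high drip replicate 4 and low drip replicate 5 and below them in low drip replicate 4, and CITED2 is the reverse.

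Markers of other cells varied with NR4A3 and SLC25A25. Liver transcripts were a term in fits given above, while the part of smooth muscle, pericyte and lymphocyte markers in the results was not tested. The summed level of the 4 measured of 6 smooth muscle and pericyte markers, none of them at 0, ran between 154 and 295 CPM at high drip and between 165 and 291 CPM at low drip. NR4A3 had an r of 0.781 with it (permutation p = 0.00265, adjusted 0.119 over 45 relations computed, rho 0.755 with permutation p = 0.00605) and of 0.833 without the 2 animals farthest from the median of the markers. Within libraries with liver transcripts that r was 0.895 (n = 6, exact permutation p = 0.0375) and within those without 0.670 (n = 6, exact permutation p = 0.144). By sex the summed level ran between 165 and 295 CPM in males and between 154 and 291 CPM in females. RCAN1 had an r of 0.538 with the same markers (permutation p = 0.0705, adjusted 0.529, rho 0.497 with p = 0.103).

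SLC25A25 had lower levels in libraries with more liver RNA, a relation that did not pass adjustment and was weaker without 2 of the animals. It averaged 160 ± 73.8 CPM in the 6 libraries with liver transcripts and 234 ± 94.8 CPM in the 6 without (SD), while RCAN1 averaged 708 ± 520 CPM with and 335 ± 149 CPM without, and NR4A3 115 ± 133 CPM with and 23.9 ± 10.24 CPM without. For NR4A3 that direction was found in males only. Females averaged 15.9 ± 12.7 CPM of NR4A3 with liver transcripts, all at high drip, and 24.8 ± 11.2 CPM without, all at low drip (SD, n = 3 each). The 10 measured of 13 liver markers, none of them at 0 in all libraries, summed to 3.45 to 551 CPM at high drip and to 2.94 to 92.0 CPM at low drip. In the 6 libraries without liver transcripts they ran only between 2.94 and 8.88 CPM. Over the 12 libraries r with SLC25A25 was -0.743 (permutation p = 0.00532, adjusted 0.12), and -0.363 without the 2 animals farthest from the median of the markers. As the sums fall into separate clusters, r was also taken within each. It was -0.856 with SLC25A25 in the libraries with liver transcripts (n = 6, exact permutation p = 0.0417, rho -0.771 with p = 0.103) and -0.839 in those without (n = 6, exact permutation p = 0.00833, rho -0.943 with p = 0.0167). Adjusted over the 10 relations computed within these clusters, both permutation p-values were 0.0833. Lymphocyte markers, 5 of 7 measured, summed to 2.09 to 14.1 CPM at high drip and to 2.40 to 7.26 CPM at low drip and had an r of -0.681 with SLC25A25 (permutation p = 0.0134, adjusted 0.151, rho -0.538 with p = 0.0744).

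**Figure D5:**
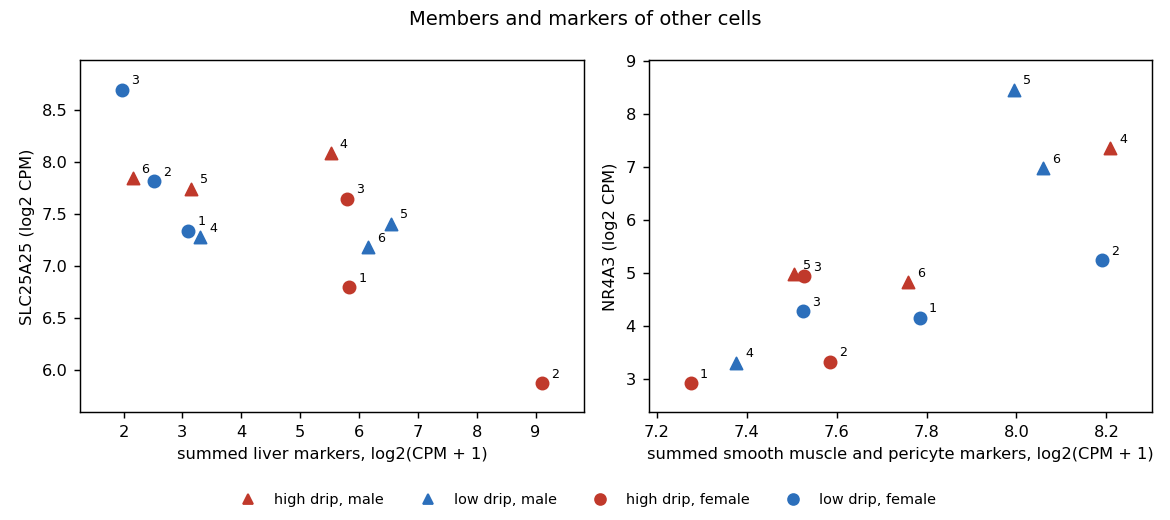
Left, SLC25A25 (log2 CPM) against summed liver markers, log2(CPM + 1), and right, NR4A3 (log2 CPM) against summed smooth muscle and pericyte markers, log2(CPM + 1), in 12 pigs. Triangles are males, circles are females, red is high drip, blue is low drip, and numbers are replicates. High drip replicate 2 has the most liver marker RNA (551 CPM) and the least SLC25A25 (58.5 CPM), and the 3 males with the most NR4A3 lie at the upper end of the right panel's x axis together with low drip replicate 2.

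None of the 3 genes varied with total counts or age beyond the permutation threshold over the 12 libraries. With total counts r was 0.212 for RCAN1 (permutation p = 0.512, rho 0.154 with p = 0.636), 0.340 for NR4A3 (permutation p = 0.278, rho 0.329 with p = 0.296) and -0.449 for SLC25A25 (permutation p = 0.141, rho -0.301 with p = 0.343). With age in days r was -0.185 for RCAN1 (permutation p = 0.569, rho -0.124 with p = 0.700), -0.414 for NR4A3 (permutation p = 0.18, rho -0.432 with p = 0.161) and 0.309 for SLC25A25 (permutation p = 0.334, rho 0.0637 with p = 0.845). NR4A3 had an r of 0.587 with the share of reads assigned to no feature, which ran between 24.2% and 29.3% (permutation p = 0.0442, adjusted 0.398, rho 0.615 with p = 0.0378). Without the 2 farthest animals that r was 0.425. The r with total counts depended on the 2 libraries farthest from the median of total counts. Without them it was 0.820 for NR4A3, 0.564 for RCAN1 and -0.017 for SLC25A25.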

How the data were processed

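Muscle RNA of 12 pigs was sequenced, 1 library each, on an Illumina Genome Analyzer IIx. Per the submitters' processing notes, the tools were TopHat2 2.0.3, Bowtie 0.12.7.0 and HTSeq, and the genome build was Sscrofa10.2. The deposited values are raw counts per feature. The annotation release and strand setting are not given in the sources used here, so reads of an antisense neighbour cannot be told apart from a gene's own. Symbols came from a table of gene identifiers, which named 10349 of 20300 Ensembl features, and the other 441 features, with HSMMG identifiers, had no symbol. Reads assigned to no feature, 24.2% to 29.3% of a library, stayed out of totals and tests. No genome of the files' build and no gene length was used here.

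The two-sided quasi-likelihood F-test of edgeR 4.0.16 (R 4.3.3) was run over the 10627 features kept by filterByExpr, after TMM scaling. P-values were adjusted by Benjamini and Hochberg's method over all of them, and the threshold was 0.05. One fit had sex and drip as terms and the other their product as well. Folds are log2 with the SE of the fit. CPM is scaled to the tested features with TMM factors, and log2 CPM used a prior count of 2. Correlations used 100000 resamples, or all orders within groups of 6. ALB and the marker sums are scaled to the whole table. The library split by liver transcripts was set at 10 CPM of ALB. Alternatives were RLE size factors, library totals only, no filter on low counts, limma 3.58.1 (voom), DESeq2 1.42.0, age or liver transcripts as terms, other prior counts, other assignments of tables to animals and each animal left out. The steps were tested on simulated data.

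The genes named are the 3 members, for each the 10 features with a symbol and the highest r and the 5 with the lowest, their families and calcineurin subunits, and of each list the 4 with the highest absolute r. Some of these genes are not reported here. The members and the lists were chosen with earlier results of these data known. P-values of the fits set a difference against the spread between animals, and those of the correlations come from reordering the animals. Precision is limited by 3 animals in each sex and drip group. The replicate numbers were given in accession order and pair no animals.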

Additional observations from a re-analysis of the deposited data

Results flagged for a closer look

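Within drip groups of 6 animals, 4 CPM values stood apart from the nearest other animal by a larger share of the group's whole range than Dixon's 95% critical value for 6 samples. RCAN1 was at 1389 CPM in low drip replicate 5, where the next animal had 454 CPM. NR4A3 was at 352 CPM in the same animal, where the next had 126 CPM. In high drip replicate 4 NR4A3 was at 163 CPM, and the next animal had 31.2 CPM. SLC25A25 was at 416 CPM in low drip replicate 3, and the next animal had 226 CPM. The 3 genes in 2 drip groups gave 6 groups to test, chance marks about 1 in 20, and these genes were chosen for their range, so the marks are not independent of the choice. On the log2 CPM scale 0 of the 6 groups were marked.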

How the results depend on the processing

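Of the alternatives other than leaving out an animal, 157 values kept their direction and side of the threshold, 13 changed sign and 6 counts of called features moved by over 1.5 times. With 1 animal left out 254 values kept both, 21 changed sign and the r of RCAN1 and NR4A3 lost its unadjusted p under 0.05. So did the SLC25A25 fold within females, whose adjusted p had not passed, with an unadjusted edgeR p of 0.0944 without low drip replicate 3. The smallest count behind a value of the 3 genes was 69. No member passed the adjusted threshold under any of them. With liver transcripts as a term, the drip fold of RCAN1 was -0.079, its fold within females -2.33 and its difference between the sexes 3.79, while NR4A3 had 4.57 for that difference and 0.44 within males. In the fit with the product that term rests on the males, so the female fold and both differences lean on a liver effect fitted in males. With tables as recorded, SLC25A25 had a drip fold of 0.18 and a sex fold of -0.0093, and NR4A3 0.71 within females. In the 9 animals the sex fold of SLC25A25 was -0.28. The difference between the sexes for RCAN1 was 0.10 with library totals, 0.088 with age and 0.89 with voom, and for NR4A3 0.35 with voom. The cause was not tested. The 9 animals, the liver term, DESeq2 and voom within each sex were chosen after seeing the data. DESeq2 called 2 features by sex, 7 for the product, 9 within females and 2 within males, against 0 in edgeR. For the sex fit 1 feature was called without the filter, and for the product 1 with the liver term.

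Leaving out 1 animal gave these ranges of log2 folds: by drip -0.14 to 0.98 for RCAN1, -1.46 to -0.29 for NR4A3 and -0.41 to 0.040 for SLC25A25, and by sex -0.21 to 0.90, 1.89 to 2.87 and -0.18 to 0.38 for the same genes. The difference between the sexes ran -0.82 to 1.76 for RCAN1, -1.80 to 0.80 for NR4A3 and 1.26 to 2.26 for SLC25A25. The drip fold within females ran -0.58 to 0.58 for RCAN1 and -1.65 to -0.65 for SLC25A25, the last without low drip replicate 3, and within males -0.58 to 1.99 for RCAN1 and -2.46 to 0.14 for NR4A3. The r of RCAN1 and NR4A3 ran 0.588 to 0.826. Low drip replicate 5 gave an end of 9 of these ranges. No paired analysis was possible because the replicate numbers were given in accession order and tie no animals together.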
